A study of Mus musculus with 20 samples.

Results

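The cytosolic sulfotransferases (Sult genes) and the UDP-glucuronosyltransferases (Ugt genes) were examined in the livers of 20 mice. They were taken as every symbol of the deposited count table that began with Sult and a digit or with Ugt1, Ugt2 or Ugt3, with 1 pseudogene symbol left out. The rule gave 41 genes, 21 Sult and 20 Ugt, of 46095 symbols, of which 26350 had at least 1 count. The series asked what the loss of Pck1, the gene of cytosolic phosphoenolpyruvate carboxykinase, does to liver expression in steatohepatitis brought on by diet. It compared wild-type (WT) mice with Pck1-cKO mice (KO), in which Pck1 is deleted in the liver. Mice of either genotype were fed chow or the NASH diet, on which non-alcoholic steatohepatitis develops, and the 4 groups WT chow, WT NASH, KO chow and KO NASH held 5 mice each. All mice had 24 weeks of their diet and were 31 to 33 weeks old, and the labels used here name no Cre driver, strain or sex.

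Sult enzymes move a sulfate group from the donor PAPS (3'-phosphoadenosine 5'-phosphosulfate) to steroids, bile acids, thyroid hormones, catecholamines and phenols. Ugt enzymes move glucuronic acid from UDP-glucuronate to bilirubin, steroids, bile acids and drugs. Both make their substrates more soluble for export into bile or blood, and hepatocytes are a main site of both. Several Sult genes of rodent liver are known to differ between the sexes, under the pattern of growth hormone release.

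The genes lay in clusters in the GENCODE M21 annotation of GRCm38, which held all 41. The 8 Sult2a genes were on chromosome 7, the 8 Ugt1a genes on chromosome 1 and the 10 Ugt2 genes on chromosome 5. The Sult2a coding sequences were 72.7% to 97.9% identical by pair over the aligned bases. Sult2a1 and Sult2a2 were the closest pair, aligned over 68.1% of the longer sequence. The Ugt1a genes shared 50.3% to 60.6% of their exonic bases with one another, because each joins its own first exon to the same later exons. Ugt1a6a and Ugt1a6b were 98.4% identical in coding sequence, Ugt2b5 and Ugt2b38 97%, Ugt3a1 and Ugt3a2 93.2% and Sult3a1 and Sult3a2 90.9%. Reads of such pairs may have been divided between copies by the counting, so that the split within a pair is uncertain.

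RefSeq promoters (GRCm38.p6) matched 35 of the 41 genes, and 4 are printed because their genes carry the contrast described below: the counts of Sult2a3, Sult2a5 and Sult3a1 came almost wholly from female livers, and those of Sult2a8, from the same chromosome 7 cluster as Sult2a3 and Sult2a5, did not. Each is the 250 bases before the annotated start, 5′ to 3′ on the strand of the gene. Capitals mark GTTAAT, part of the known binding motif of HNF1, or TTCNNNGAA, the core motif of STAT5, on either strand; the motifs do not overlap here.
Sult2a3, chr7:14123049-14123298, minus strand: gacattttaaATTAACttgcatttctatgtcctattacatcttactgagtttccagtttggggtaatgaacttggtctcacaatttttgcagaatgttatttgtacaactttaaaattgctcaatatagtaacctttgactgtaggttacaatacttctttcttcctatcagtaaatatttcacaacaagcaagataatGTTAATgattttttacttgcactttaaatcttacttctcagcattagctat
Sult2a5, chr7:13623717-13623966, plus strand: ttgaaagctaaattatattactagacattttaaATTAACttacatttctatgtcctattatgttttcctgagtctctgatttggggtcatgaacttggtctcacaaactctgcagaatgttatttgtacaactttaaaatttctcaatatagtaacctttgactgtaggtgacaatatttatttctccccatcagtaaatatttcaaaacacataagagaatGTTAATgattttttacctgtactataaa
Sult2a8, chr7:14446588-14446837, minus strand: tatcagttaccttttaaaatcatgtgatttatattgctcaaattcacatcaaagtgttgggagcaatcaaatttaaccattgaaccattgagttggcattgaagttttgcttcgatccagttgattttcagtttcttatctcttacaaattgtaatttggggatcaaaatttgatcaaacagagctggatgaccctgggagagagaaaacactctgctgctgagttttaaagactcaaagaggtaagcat
Sult3a1, chr10:33857472-33857721, plus strand: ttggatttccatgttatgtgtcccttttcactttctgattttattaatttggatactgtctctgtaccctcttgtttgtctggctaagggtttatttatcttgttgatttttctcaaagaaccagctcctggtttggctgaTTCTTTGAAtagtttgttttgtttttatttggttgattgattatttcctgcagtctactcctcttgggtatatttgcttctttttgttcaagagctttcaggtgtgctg
The Sult2a3 and Sult2a5 stretches each held GTTAAT on both strands and shared the run GTTAATgattttt near the start. This Sult2a8 stretch held neither motif, and that of Sult3a1 held TTCTTTGAA. Over all 32851 RefSeq windows of this length, GTTAAT was in 6.43% and TTCNNNGAA in 7.02%. Of 38 windows of the Sult and Ugt genes, 13 held GTTAAT and 2 held TTCNNNGAA. GTTAAT was in Sult2a3, Sult2a5 and Sult3a2, which were called between the sexes. It was also in Sult1a1, Sult1d1, Ugt1a1, Ugt1a6a, Ugt1a9, Ugt2a3 and Ugt3a1, which were not. The other window with TTCNNNGAA was that of Ugt1a6a, and Sult3a2 lacked it. Another Sult2a8 window, chr7:14438552-14438801, held neither motif. A link of these motifs to sex was not tested. ATTGAT, the HNF6 motif, was in 6 of the 38 and in 6.72% of all windows, and GCGTG, the core bound by the aryl hydrocarbon receptor, in 4 and in 28.16%. Direct repeats of AGGTCA spaced by 1 base or by 4, bound by nuclear receptors, were in 0 of the 38, against 0.03% and 0.02% of all windows.

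The libraries differed in ways that the labels do not give. Sex was read from 4 Y-linked genes: 13 libraries had 2753 to 5230 counts over them and were taken as male, and 7 had 1 to 12 and were taken as female, with Xist at 420 CPM (counts per 1000000 counts of the scaled library total) or more. WT chow was all male. The females were replicates 1, 2, 3 and 5 of WT NASH, replicates 3 and 5 of KO chow and replicate 2 of KO NASH. Expression also varied with gene length. For each library, log2 CPM less the gene's mean over the 20 libraries was fitted on log2 length. The slope is thus relative to the mean of the series. It was -0.34 to -0.25 in replicates 4 and 5 of KO chow, replicate 4 of WT NASH and replicates 3, 4 and 5 of WT chow, and 0.01 to 0.19 in the other 14. WT NASH replicate 4 was thus both the only male and the only library of negative slope in its group, and these cannot be told apart there. The counts for the diet in WT and for both genotype comparisons, and the values of several genes, are therefore also given with sex, or sex and slope, as terms of the model. Library totals were 9958940 to 20602000 counts. Pck1 was at 1701 to 4641 CPM in the WT livers and 300.4 to 861 CPM in the KO livers, with log2 fold changes of -2.51 on chow and -2.36 on the NASH diet (edgeR adjusted p = 0.00011 and 6.13e-05).

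The defining markers of hepatocytes (Alb, Apoa1, Apob, Serpina1a and Tat) summed to 48044 to 119367 CPM over the 20 livers, and the ranges of the groups overlapped. Alb made up most of that sum. Of the 5, Serpina1a was lower in KO on both diets (log2 fold change -1.07 on chow and -0.82 on the NASH diet, edgeR adjusted p = 0.0189 and 0.0439), and the other 4 were not called. The summed markers of macrophages were at 199 to 779 CPM, of endothelium at 133 to 254, of stellate cells at 44.3 to 152 and of bile duct cells at 2.69 to 15.7, and those of kidney at 0 to 0.237. The pancreas list reached 107 CPM in 1 WT NASH library, all of it Cela1, and at most 24.0 in WT chow. Prss2 was at 0 in every library, and Cpa1, Ctrb1 and Pnlip were at most at 0.136 CPM. The gut list was at 93.7 to 342 CPM, nearly all of it Fabp2 and Lgals4, with Vil1 and Cdh17 at most at 0.68 CPM. Stellate markers stood at 113 to 152 CPM in KO NASH and 82.1 to 118 in WT NASH. The part of these lists in the results below was not tested. In whole liver, fewer cells of a type and less RNA per cell cannot be told apart.

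The 41 genes together took 0.347% to 1.14% of the counts of a library. A count was found for 37 of them; Sult1c1, Ugt1a10, Ugt2a1 and Ugt2a2 had none. The filter on low counts kept 29 (14 Sult and 15 Ugt). It removed, beside those 4, Sult2a4, Sult2a6, Sult2b1, Sult4a1, Sult6b1, Sult6b2, Ugt1a2 and Ugt1a7c, whose means over the 20 libraries were 0.0035 to 0.209 CPM. Per kilobase of exon, the highest mean levels were those of Ugt2b5 (531 CPM per kb), Sult1a1 (368), Ugt2b36 (362), Sult2a8 (289) and Sult2a2 (242). Sult2a2 is annotated with 741 exonic bases and Sult2a1 with 1020. Their means were 179 and 172 CPM, and Sult2a1 was at 168 CPM per kb. The level of Sult2a2 came from the female livers, with a mean of 512 CPM in the 7 females and 0.249 CPM in the 13 males. Ugt1a1, the enzyme of bilirubin conjugation, was at 141 CPM per kb, and Sult1e1, which sulfates estrogens, at 1.56. Of the exonic bases of Ugt1a1, 58.9% are shared with other Ugt1a genes, so its level per kb is uncertain.

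In WT livers, 6 of the 29 tested genes rose on the NASH diet, against 2.69% of all 14440 genes tested that rose and 5.93% that changed in either direction (edgeR, adjusted p under 0.05). They were Sult2a1, Sult2a2, Sult2a5, Sult3a1, Sult3a2 and Sult5a1. All 6 were higher in each of the 4 female WT NASH livers than in the male one. Every WT NASH liver lay above every WT chow liver in Sult1c2, Sult2a1 and Sult5a1, as in 2.9% of all genes tested. With sex as a term, edgeR called 0 of the 29 and 1.11% of all genes, and 4 of the 29 and 13.3% of all genes had an unadjusted p under 0.05; with sex and slope it called Sult5a1 alone, against 4.99% of all genes. DESeq2 without these terms called 8 of the 29, and 10.4% of all genes. The median log2 fold change was 1.86 over the 14 tested Sult genes and -0.24 over the 15 Ugt genes, against 0.01 over all genes tested; with sex and slope as terms these were 0.92, 0.04 and 0.02.

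On chow, KO livers differed from WT livers in 3 of the 29 genes, against 5.53% of all genes tested. Sult2a8 and Ugt2b1 fell, and Sult3a2, high in the 2 female KO chow livers, rose. With sex and slope as terms, 6 of the 29 were called, all lower, against 7.32% of all genes in this direction and 13.8% in either: Sult2a8 and Ugt2b1 again, and Sult1c2, Sult5a1, Ugt2a3 and Ugt2b36. In a fit of the 13 male livers alone, 7 of 25 tested genes were lower in KO, against 2.92% of all genes, with Sult2a8 and Ugt2b1 among them. Every KO chow liver lay below every WT chow liver in Sult2a8 and Ugt2b1, as in 2.65% of all genes tested.

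On the NASH diet, 5 of the 29 genes were lower in KO than in WT livers, against 9.65% of all genes tested in either direction and 4.74% in this one. They were Sult1b1, Sult1d1, Sult5a1, Ugt2a3 and Ugt2b1. Of the 29 log2 fold changes, 27 were negative, with a median of -1.50 against 0.00 over all genes tested; with sex and slope as terms, 23 were negative and the median was -0.60. In that fit 6 of the 29 were called, all lower, against 5.34% of all genes in this direction and 10.4% in either: Sult1d1, Sult5a1, Ugt2a3 and Ugt2b1 again, and Sult2a8 and Sult3a2. The call of Sult3a2 rests on the 1 KO NASH female, at 1.33 CPM against 6.78 to 13.6 CPM in the WT NASH females. The males of both groups were at 0 to 0.0621 CPM. The comparison on chow and the one on the NASH diet share no library. The KO NASH livers lay wholly below the WT NASH livers in Sult1b1, Sult1c2, Sult5a1, Ugt2a3 and Ugt2b1, as they did in 6.44% of all genes tested.

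For the diet within KO livers, edgeR called 0 of the 29 genes and 3.29% of all genes. At an unadjusted p under 0.05 there were 6 of the 29, against 22.2% of all genes. DESeq2 called 1 of the 29, Sult3a1, and 9.02% of all genes. The interaction asks whether the genotype difference was unequal on the 2 diets, counted as NASH minus chow. It was called for 1 of the 29, Sult3a2, against 0.139% of all genes. These comparisons share groups, so that a gene high or low in 1 group enters more than 1 of them.

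Between the sexes as read from the counts, with the groups as terms, 8 of the 29 genes were called, against 1.02% of all genes tested (0.478% higher and 0.54% lower in females). Sult2a1, Sult2a2, Sult2a3, Sult2a5, Sult3a1, Sult3a2 and Ugt1a5 were higher in females and Sult2a8 was lower. All 7 that were higher kept their call in each of the 20 fits that left out 1 library. Sult2a8 kept it in 13 of them, and with the length slope added, and lost it with the replicate number as a block. Its difference of -1.52 on the log2 scale was -0.89 without WT NASH replicate 4.

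**Figure D1:**
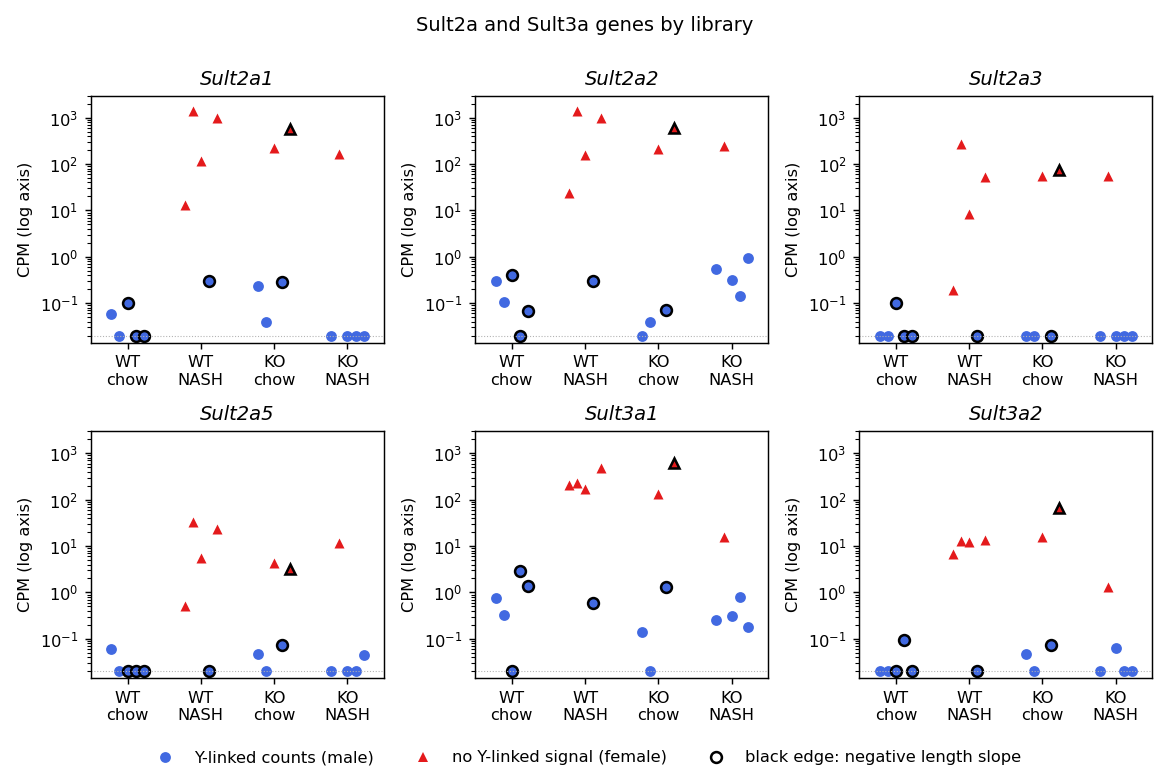
Level in CPM (log axis) of 6 Sult genes in the 20 livers, by group; each point is 1 liver, circles are male and triangles female as read from Y-linked counts, a black edge marks a negative length slope, and values under 0.02 CPM are drawn on the dotted line. In all 6 genes every female lies above every male, and in Sult3a1 the KO NASH female, at 15.9 CPM, is the lowest of the 7.

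The hydroxysteroid sulfotransferases of the Sult2a family sulfate steroids such as dehydroepiandrosterone, and bile acids. Sult2a1 was at 13.4, 1381, 114, 0.294 and 976 CPM in WT NASH replicates 1 to 5, and at 0 to 0.0995 CPM in WT chow. In KO chow it was at 0.232, 0.0402, 219, 0.29 and 564 CPM, and in KO NASH at 164 CPM in replicate 2 and 0 in the other 4. The high values were those of the 7 females, whose lowest, 13.4 CPM, stood above the highest male, 0.294 CPM. WT chow had 2 counts of Sult2a1 in all, so no fold is given for the diet (edgeR adjusted p = 0.0362, and 0.631 with sex as a term, over a range of 3.28e-05 to 0.631 in all alternatives). Between the sexes the edgeR adjusted p was 2.09e-07.

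Sult2a2 was at 23.9, 1396, 153, 0.294 and 965 CPM in WT NASH and at 0 to 0.398 CPM in WT chow. In KO chow it was at 214 and 587 CPM in the 2 females and at 0 to 0.0726 CPM in the 3 males, and in KO NASH at 248 CPM in the female and 0.144 to 0.952 CPM in the males. The levels thus followed those of Sult2a1 liver by liver in the females. Reads may have been shared between these near copies, and the part of that was not tested. The difference between the sexes had an edgeR adjusted p of 5.37e-07.

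Sult2a3 was at 0.194, 268, 8.36, 0 and 51.6 CPM in WT NASH, 54.8 and 74.2 CPM in the KO chow females, and 54.8 CPM in the KO NASH female. All 13 male livers together gave 1 count of it. Sult2a5 was at 0.517, 32.9, 5.63, 0 and 23.7 CPM in WT NASH, 4.31 and 3.16 CPM in the KO chow females and 11.8 CPM in the KO NASH female, with 4 counts over the 13 males. Both were female genes in these libraries (edgeR adjusted p = 0.00126 and 8.47e-06), and WT NASH replicate 1 was the lowest female in both. Sult2a4 and Sult2a6, under the filter, had 26 and 71 counts in all, every one of them in female livers. Another gene of the cluster, Sult2a7, was at 3.23 to 48.3 CPM in males and 4.78 to 105 CPM in females, and was not called between the sexes (edgeR adjusted p = 0.412).

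Sult3a1, whose enzyme sulfates amines, was at 209, 229, 170, 0.588 and 479 CPM in WT NASH and at 0.77, 0.325, 0, 2.94 and 1.39 CPM in WT chow. In KO chow it was at 132 and 623 CPM in the females and at 0.139, 0 and 1.31 CPM in the males, and in KO NASH at 15.9 CPM in the female and 0.181 to 0.815 CPM in the males. The 4 WT NASH females differed by less than 3-fold in Sult3a1, while Sult2a1 ran from 13.4 to 1381 CPM in the same livers. The diet difference in WT, 7.67 ± 2.16 (log2 fold change ± SE, edgeR adjusted p = 0.0404), turned to -0.57 with sex as a term. Female livers were higher by 8.54 ± 1.00 (log2, edgeR adjusted p = 2.16e-05).

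Sult3a2, the near copy of Sult3a1, was at 6.78, 13.1, 12.5, 0 and 13.6 CPM in WT NASH and had 1 count in WT chow. The KO chow females were at 15.3 and 65.1 CPM, and the KO NASH female at 1.33 CPM, with 0 to 0.0726 CPM in the 7 KO males. The interaction for Sult3a2 had an edgeR adjusted p of 0.0451 and was called in 5 of the 20 fits that left out 1 library. With sex as a term, KO NASH was lower than KO chow (log2 fold change -4.46, edgeR adjusted p = 0.0107, over a range of 0.00117 to 0.490). That value rests on the 1 female KO NASH liver.

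**Figure D2:**
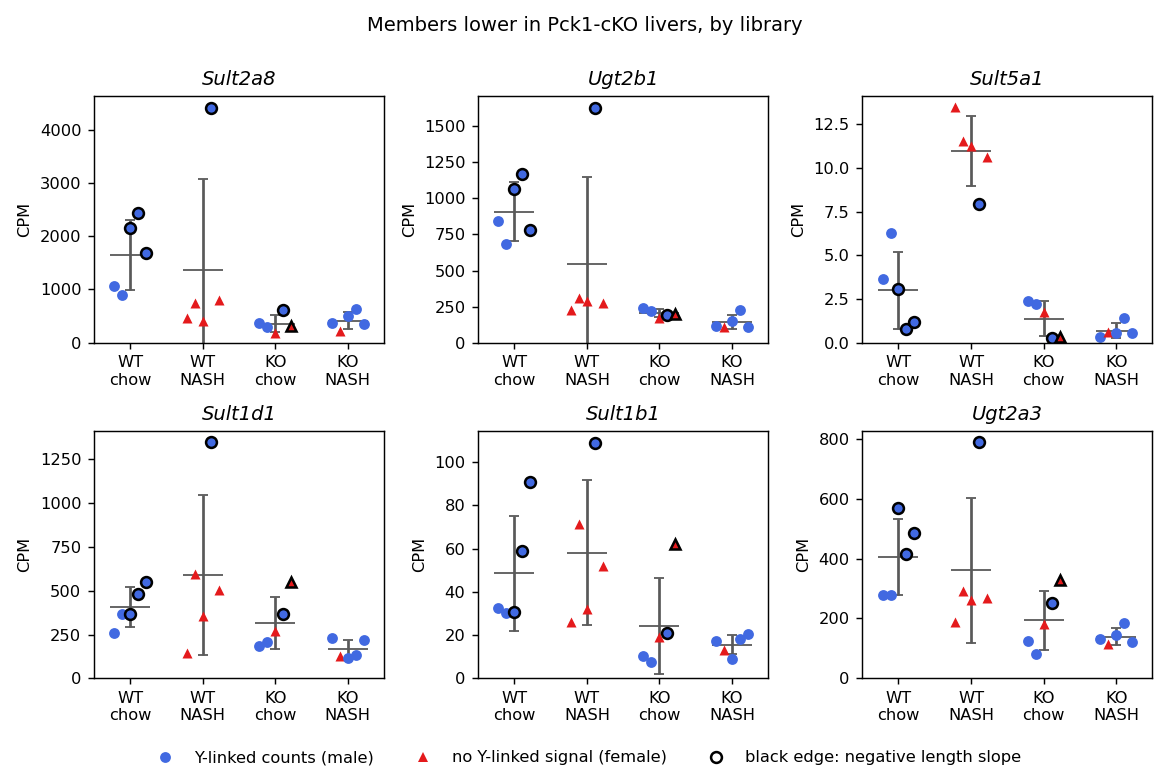
Level in CPM of 6 genes in the 20 livers, by group; points are livers (circles male, triangles female, a black edge for a negative length slope), and grey bars are the mean ± SD of 5 livers on axes that start at 0. Every KO liver lies below every WT chow liver in Sult2a8 and Ugt2b1, and every KO NASH liver lies below every WT NASH liver in Ugt2b1, Sult5a1, Sult1b1 and Ugt2a3.

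Sult2a1, Sult2a2, Sult2a3 and Sult2a5 were higher in females, and Sult2a7 was not called for sex. Sult2a8, a bile acid sulfotransferase of mouse liver, was lower in females, by a call that some of the fits lost. It was at 1068, 905, 2146, 2441 and 1683 CPM in WT chow and at 379, 295, 182, 614 and 320 CPM in KO chow. The groups did not overlap, and the difference was -2.20 ± 0.56 (log2 fold change ± SE, edgeR adjusted p = 0.0258). This call held under all 10 other settings. It was lost without WT chow replicate 3 or 4 or without KO chow replicate 1, 2 or 3, with an adjusted p of at most 0.0718.

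On the NASH diet Sult2a8 was at 456, 755, 418, 4404 and 806 CPM in WT and 372, 225, 511, 625 and 354 CPM in KO. The WT male, replicate 4, had more than 5 times the level of any female of its group. The difference missed the threshold without further terms, at -1.71 ± 0.55 (edgeR adjusted p = 0.0539), and was -0.55 without WT NASH replicate 4. It was -2.18 ± 0.41 with sex as a term and -1.63 ± 0.23 with sex and slope (edgeR adjusted p = 0.00545 and 0.000297, over a range of 0.000297 to 0.528). With both diets pooled, the KO livers were the lower within each sex. Males were at 905 to 4404 CPM in WT and 295 to 625 CPM in KO, and females at 418 to 806 CPM in WT and 182 to 320 CPM in KO. The WT females were all on the NASH diet, where the only KO female was at 225 CPM, and the WT males were all on chow but for replicate 4 of WT NASH.

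Among the phenol sulfotransferases, Sult1a1 was the most abundant. It was at 568, 546, 442, 678 and 1126 CPM in WT chow, 329, 418, 510, 283 and 363 in WT NASH, 454, 303, 469, 705 and 1912 in KO chow and 582, 371, 236, 240 and 550 in KO NASH. The groups overlapped in all 4 comparisons, KO chow replicate 5 stood far above the rest, and Sult1a1 was called in none of them by edgeR (adjusted p = 0.184 to 0.95).

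Sult1b1, which sulfates thyroid hormones, was at 26.2, 71.6, 32.2, 109 and 51.9 CPM in WT NASH and at 17.3, 13.0, 9.06, 18.3 and 20.3 CPM in KO NASH. It was at 32.4, 30.3, 30.6, 59.0 and 91.0 CPM in WT chow and at 10.6, 7.68, 19.4, 20.8 and 62.3 CPM in KO chow. On chow the log2 difference was -1.01 and not called, and without KO chow replicate 5 it was -1.71 and called. The NASH groups were apart, with a difference of -1.90 ± 0.51 (log2, edgeR adjusted p = 0.0236). With sex and slope as terms it was -1.08 and no longer called (edgeR adjusted p = 0.0721, over a range of 0.00245 to 0.622), and it was also lost without WT NASH replicate 4 or KO NASH replicate 1 or 3.

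Sult1d1, which sulfates catecholamines, was at 143, 592, 355, 1346 and 502 CPM in WT NASH and at 233, 127, 114, 133 and 217 CPM in KO NASH. The groups overlapped through WT NASH replicate 1 alone. The difference was -1.83 ± 0.44 (log2, edgeR adjusted p = 0.0142), and -1.44 ± 0.37 with sex and slope as terms (edgeR adjusted p = 0.0179, over a range of 0.000638 to 0.703). Without WT NASH replicate 4 the adjusted p was 0.0504. On chow, Sult1d1 was at 259, 368, 364, 482 and 550 CPM in WT and 184, 205, 272, 365 and 550 CPM in KO, and was not called (edgeR adjusted p = 0.686).

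Sult1e1 and Sult1c2 were low. Sult1e1 was at 0.129 to 12.5 CPM over all libraries, highest in WT NASH replicate 4, and was not called without further terms. It was called lower in KO in 2 of 10 other settings on chow and 2 of 11 on the NASH diet. In males alone the log2 fold change of Sult1e1 was -3.43 on chow (edgeR adjusted p = 0.0218, over a range of 0.0218 to 0.363). On the NASH diet it was -3.61, against the single WT NASH male, replicate 4. Sult1c2 was at 5.68 to 11.4 CPM in WT NASH and 2.25 to 5.54 CPM in WT chow, without overlap. In KO chow it was at 2.82 and 4.38 CPM in the females and 0.121 to 0.290 CPM in the males. It was called lower in KO chow in 3 of 10 other settings, at -2.92 once sex entered the model (edgeR adjusted p = 0.0174), -2.74 with slope beside it (0.00284) and -4.43 in males alone (0.00387), over a range of 0.00284 to 0.577.

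Sult5a1 was at 13.5, 11.6, 11.3, 7.94 and 10.7 CPM in WT NASH and at 0.341, 0.598, 0.559, 1.44 and 0.544 CPM in KO NASH. The lowest WT value was more than 5 times the highest KO value, and the 1 male of WT NASH and the 1 female of KO NASH lay with their groups. The difference was -3.97 ± 0.60 (log2, edgeR adjusted p = 0.000489) and it was called in all 20 fits without 1 library and in 10 of 11 other settings, the exception being females alone. It was -4.65 ± 0.47 with sex and slope as terms.

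In WT chow Sult5a1 was at 3.67, 6.28, 3.09, 0.76 and 1.18 CPM, below every WT NASH liver. The diet difference in WT was 1.86 ± 0.54 (log2, edgeR adjusted p = 0.0445); it was called in 8 of 20 fits without 1 library, and once sex entered the model it was 2.03 and missed the threshold (edgeR adjusted p = 0.198, over a range of 0.00885 to 0.531). In KO chow it was at 2.36, 2.21, 1.73, 0.29 and 0.304 CPM, and the 2 lowest values were those of the libraries of negative length slope, as in WT chow. With sex and slope as terms Sult5a1 was lower in KO on chow too (-1.46 ± 0.43, edgeR adjusted p = 0.0234), higher on the NASH diet in WT (1.83, 0.0222) and lower on it in KO (-1.35, 0.0439). In that fit the interaction was -3.19 ± 0.62 (edgeR adjusted p = 0.0301), and it was -2.87 ± 0.78 without the terms (0.157), over a range of 0.0139 to 0.415.

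**Figure D3:**
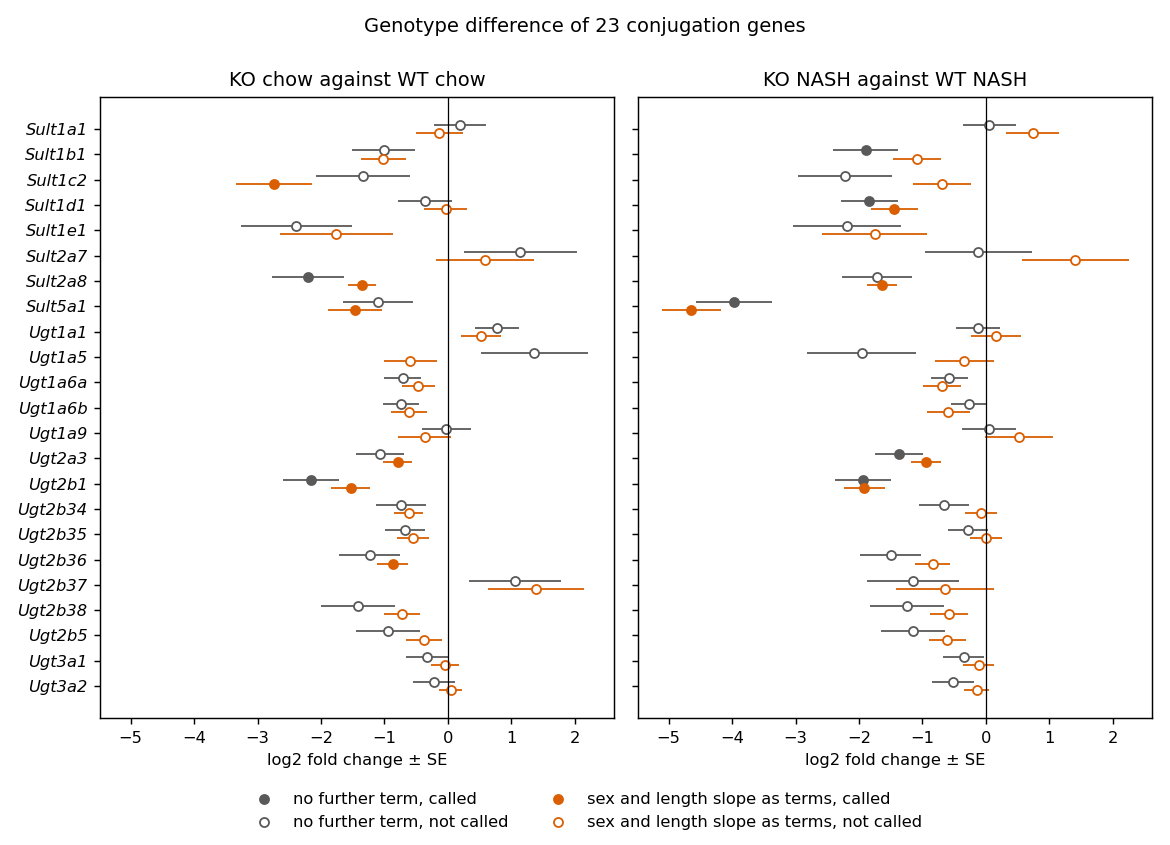
Log2 fold change ± SE of KO against WT on chow (left) and on the NASH diet (right) for 23 Sult and Ugt genes, without further terms (grey) and with sex and length slope as terms (orange); filled points have an edgeR adjusted p under 0.05, and the 6 genes Sult2a1, Sult2a2, Sult2a3, Sult2a5, Sult3a1 and Sult3a2 are left out. Sult2a8 and Ugt2b1 lie left of 0 in both panels and both fits, and Sult5a1 has the lowest value on the NASH diet.

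The Ugt1a genes are read from alternative first exons of 1 locus, and their counts are uncertain for that reason. Ugt1a1 was the most abundant, with WT livers at 130 to 377 CPM on chow and 76.2 to 403 on the NASH diet, and KO livers at 290 to 588 and 240 to 338. It was not called in any of the 4 comparisons (edgeR adjusted p = 0.226 to 0.87), nor were Ugt1a6a, Ugt1a6b and Ugt1a9. In males alone, Ugt1a1 and Ugt1a9 were higher in KO NASH, against a single WT NASH male that was at 76.2 and 3.68 CPM.

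Ugt1a5 was the Ugt gene with a sex difference. It was at 29.2, 56.5, 59.5, 13.4 and 86.5 CPM in WT NASH, 15.1, 6.96, 62.9, 11.8 and 211 in KO chow and 4.69, 40.6, 6.58, 6.76 and 4.44 in KO NASH. WT chow, all male, was at 17.9, 21.1, 6.07, 17.2 and 57.1 CPM. Females were the highest in each mixed group, but WT chow replicate 5 lay among them. The difference between the sexes was 2.95 ± 0.43 (log2, edgeR adjusted p = 0.000411), and Ugt1a5 was called in no genotype or diet comparison (edgeR adjusted p = 0.134 to 0.481). Without KO NASH replicate 2, the female, it was called lower in KO NASH than in WT NASH (-3.13 in place of -1.96).

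Among the Ugt2 genes, Ugt2b1 had the clearest difference between genotypes. It was at 844, 681, 1067, 1171 and 779 CPM in WT chow and at 242, 219, 169, 193 and 198 CPM in KO chow. The groups did not overlap, and the difference was -2.15 ± 0.45 (log2, edgeR adjusted p = 0.00802). It was called in all 20 fits without 1 library and in all 10 other settings, with an adjusted p of at most 0.0234.

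On the NASH diet Ugt2b1 was at 226, 308, 286, 1627 and 273 CPM in WT and at 114, 113, 154, 225 and 107 CPM in KO. The difference was -1.94 ± 0.44 (log2, edgeR adjusted p = 0.0108) and -1.91 ± 0.32 with sex and slope as terms, called in all 20 fits without 1 library and in 10 of 11 other settings, the exception being females alone. Without WT NASH replicate 4 it was -0.94, and that male was over 5 times any female of its group. With both diets pooled, males were at 681 to 1627 CPM in WT and 107 to 242 CPM in KO, and females at 226 to 308 CPM in WT and 113 to 198 CPM in KO. The WT females were all on the NASH diet, where the only KO female was at 113 CPM. Its own diet differences were not called (edgeR adjusted p = 0.318 in WT and 0.474 in KO). Without WT NASH replicate 4, the male, Ugt2b1 was lower in WT NASH than in WT chow (log2 fold change -1.74 in place of -0.74, edgeR adjusted p = 0.00027, over a range of 0.00027 to 0.851). That fit sets female WT NASH livers against male WT chow livers, so diet and sex cannot be told apart in it. The diet difference in WT was called in 0 of 10 other settings.

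Ugt2a3 was at 189, 293, 261, 790 and 270 CPM in WT NASH and at 132, 116, 143, 185 and 122 CPM in KO NASH. In WT chow it was at 280, 277, 569, 415 and 486 CPM, and in KO chow at 126, 82.2, 180, 251 and 328 CPM. The NASH groups were apart by the narrow gap between 185 and 189 CPM, with a difference of -1.37 ± 0.38 (log2, edgeR adjusted p = 0.0296). This call was lost without WT NASH replicate 4, where the value was -0.86, and without KO NASH replicate 1, 2, 3 or 5. With sex and slope as terms Ugt2a3 was lower in KO on both diets, by -0.79 on chow and -0.94 on the NASH diet (edgeR adjusted p = 0.0221 and 0.0170, the latter over a range of 0.00558 to 0.563).

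The 3 Ugt genes of the highest mean CPM, a scale not corrected for length, were not called in any comparison without further terms. Ugt2b5 was at 835, 683, 2852, 1988 and 1588 CPM in WT chow, 416, 823, 524, 2626 and 869 in WT NASH, 564, 476, 533, 1116 and 1447 in KO chow and 314, 456, 766, 616 and 232 in KO NASH. Ugt2b36 was at 591, 541, 1405, 1545 and 1292 CPM in WT chow, 409, 1029, 578, 2424 and 899 in WT NASH, 264, 169, 402, 636 and 818 in KO chow and 271, 351, 431, 587 and 250 in KO NASH. Ugt2b34 was at 656, 583, 1481, 1155 and 1253 CPM in WT chow, 508, 630, 608, 1377 and 600 in WT NASH, 335, 232, 575, 692 and 1238 in KO chow and 359, 430, 635, 599 and 340 in KO NASH.

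In all 3, and in Ugt2b38, the 3 WT chow libraries of negative length slope stood above the other 2, and WT NASH replicate 4 stood above the rest of its group. For KO NASH against WT NASH the differences were -1.14 ± 0.50 for Ugt2b5, -1.50 ± 0.48 for Ugt2b36 and -0.66 ± 0.40 for Ugt2b34 (log2, edgeR adjusted p = 0.158, 0.0523 and 0.313). Without WT NASH replicate 4 they were -0.47, -0.95 and -0.31, and with sex and slope as terms -0.61, -0.84 and -0.08. Ugt2b36 was called lower in 5 of 11 other settings and in 6 of 20 fits without 1 library, and on chow in 3 of 10 other settings. Ugt2b5 was called in males alone, against the single WT NASH male, and Ugt2b34 in no setting.

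**Figure D4:**
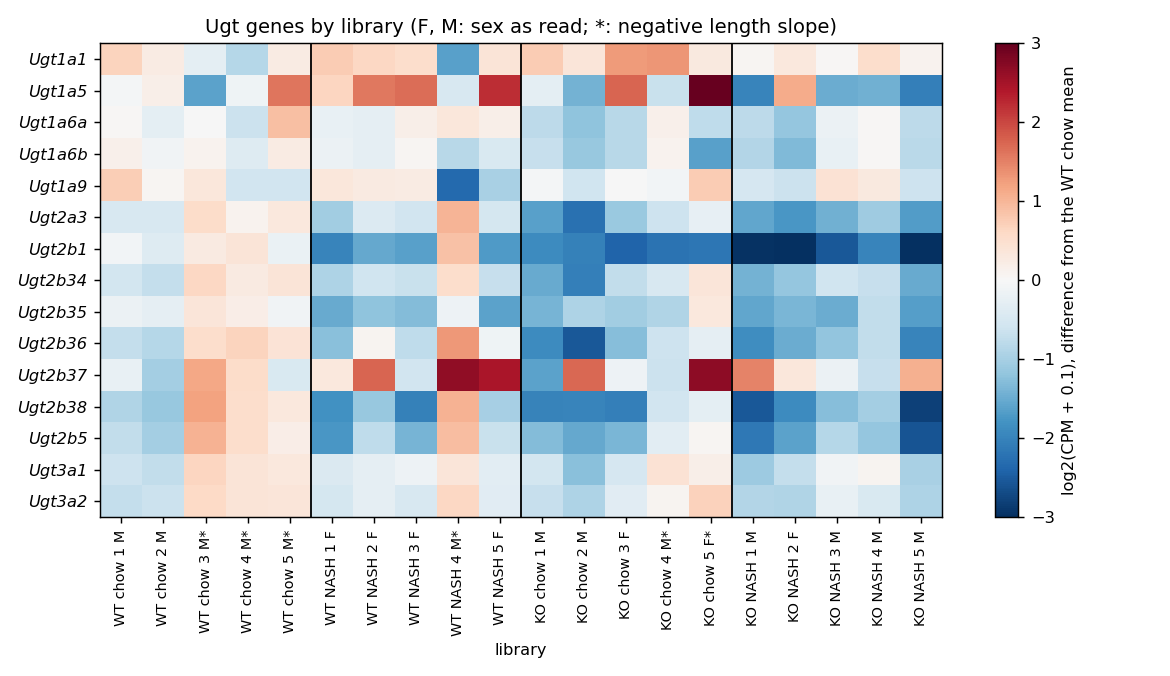
The 15 tested Ugt genes (rows) in the 20 livers (columns, with M or F for sex as read and an asterisk for a negative length slope), as log2(CPM + 0.1) less the mean of the 5 WT chow livers; the colour scale ends at -3 and 3. Ugt2b1 is blue in all 10 KO livers and in the 4 WT NASH females and red in the WT NASH male, and the columns with an asterisk are redder in Ugt2b5, Ugt2b36 and Ugt2b38 than the others of their group.

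The remaining Ugt genes, Ugt2b35, Ugt2b37, Ugt2b38, Ugt3a1 and Ugt3a2, were not called in the fit without further terms. Ugt2b35 was at 68.8 to 187 CPM in WT NASH and 174 to 269 CPM in WT chow, just short of the threshold (log2 fold change -1.07, edgeR adjusted p = 0.0507), and it was called lower in 3 of 10 other settings, DESeq2 among them, and in 6 of 20 fits without 1 library. Ugt2b37 was at 0.695 to 15.4 CPM over all livers. The Ugt3a enzymes use sugar donors other than UDP-glucuronate. Ugt3a2 was at 336 to 1033 CPM and Ugt3a1 at 46.1 to 173 CPM over all livers, and their log2 fold changes in the 4 comparisons were between -0.53 and -0.22.

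Genes that supply, reverse or regulate these reactions were taken from lists chosen beside the 41 genes. Of 7 tested genes of sulfate activation and PAPS supply, Papss1, a PAPS synthase, rose on the NASH diet in both genotypes. WT livers were at 2.56 to 6.40 CPM on chow and 9.08 to 14.4 on the NASH diet, and KO livers at 3.01 to 6.03 and 9.31 to 12.9, so that the diets did not overlap. The log2 fold changes were 1.44 in WT and 1.28 in KO (edgeR adjusted p = 0.00217 and 0.0114), and it was called in both with sex and slope as terms.

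Of 4 genes of UDP-glucuronate supply, Ugdh, the dehydrogenase that makes UDP-glucuronate, was higher in KO than in WT on the NASH diet (log2 fold change 0.93, edgeR adjusted p = 0.0387), at 133 to 245 against 60.5 to 138 CPM. With sex and slope as terms it was also higher on chow (log2 fold change 1.14, called). The Ugt genes that were called between genotypes were lower in the same KO livers. Of the 4 conjugate exporters tested (Abcc2, Abcc3, Abcc4 and Abcg2), Abcg2 was lower in females (-1.35, edgeR adjusted p = 0.0187).

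Of 3 tested genes of deconjugation, Arsa, the lysosomal arylsulfatase A, fell on the NASH diet in WT (-1.51, edgeR adjusted p = 0.0132) and was higher in KO NASH than in WT NASH (2.26, 0.000602). It was at 10.5 to 19.9 CPM in WT NASH and 46.2 to 81.4 CPM in KO NASH. Arsb, arylsulfatase B, rose on the NASH diet in WT (0.81, edgeR adjusted p = 0.0340).

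Of 13 regulators, 4 rose on the NASH diet in WT, where 2.69% of all genes did: Ahr, the aryl hydrocarbon receptor (0.89), Cux2, a factor enriched in female liver (4.72), Esr1, the estrogen receptor (1.20), and Stat5b, which carries the growth hormone signal (1.31). With sex and slope as terms, Stat5b alone of these 4 was still called, at 0.93. In KO NASH against WT NASH, Ahr (-0.78), Cux2 (-5.19) and Esr1 (-1.98) fell, and all 3 were called with both terms. Cux2 was at 25.1 to 43.1 CPM in the WT NASH females and 0.147 in the male. In KO NASH it was at 2.35 CPM in the female and 0.240 to 0.426 in the males. Within a sex, the lower level of Cux2 in KO thus rests on the 1 KO NASH female. Ahr was also lower in KO on chow (-1.06, edgeR adjusted p = 0.00847) and higher on the NASH diet in KO (1.17, 0.0101). It was at 34.0 to 56.7 CPM in WT chow, 12.6 to 32.7 in KO chow, 69.1 to 90.7 in WT NASH and 37.9 to 61.7 in KO NASH, so that KO lay below WT on either diet.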

How the data were processed

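RNA of 20 whole livers was sequenced from libraries made with a standard Illumina protocol, from RNA of integrity above 8, per the labels' protocols. Reads were aligned to GRCm38 with HISAT2 2.0.4, per the submitters' processing notes, and were counted with a program, annotation and strand setting not given in the sources used here. In the deposited table are whole-number counts per gene symbol, 1 column per mouse, as made by the authors; its columns named HFD were read as the NASH diet. The labels number the mice 1 to 5 in each group, and p-values measure the spread between these mice.

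The low-count filter of edgeR 4.0.16 (filterByExpr, minimum count 10, R 4.3.3) kept 14440 genes, with 99.9% of all counts. Libraries were scaled by TMM, and 1 quasi-likelihood model with a coefficient per group was fitted to all 20 libraries; p-values were Benjamini-Hochberg adjusted over all genes tested and called under 0.05. CPM values use the scaled totals. CPM per kb divides by exonic length in GENCODE M21. Sex was called male at 100 or more counts over Ddx3y, Kdm5d, Eif2s3y and Uty. The length slope was fitted to log2 CPM less each gene's mean over the libraries, over 9518 genes, with lengths for 93.5% of tested genes. Both were added as terms, and the sex difference was tested in the fit of group and sex. The alternatives were RLE scaling, no low-count filter, DESeq2 1.42.0, only the 2 groups compared, a replicate block, each sex alone, KO NASH replicates 1 and 5 summed, and each library left out. The script was tested on simulated counts.

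Values per liver are given for 17 genes: those called in a comparison or for sex whose mean reached 1 CPM, and the 3 of the highest mean CPM in each family. The genes, lists and rules were chosen with earlier results of these data known. KO NASH replicates 1 and 5 were the most alike pair of libraries within a group but differed by more than sampling noise (chi-square of 7.98 per gene, against at least 21.6 in the other pairs), and were kept apart.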

Additional observations from a re-analysis of the deposited data

Results flagged for a closer look

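In each group of 5 livers, the highest or lowest liver of the 17 genes with values per liver was compared with the rest: it was singled out where its gap to the nearest of the others exceeded 0.71 of the whole range of the group. Of 68 groups, 19 had such a liver. Groups in which no liver reached 1 CPM are counted in the 68 but could not be flagged. The rule singles out about 1 in 20 groups of independent, normally distributed values. The 17 genes were chosen in part by their call for sex, and several are near copies, so the 19 cannot be tested against that rate. In 12 of the 19, that liver was the only one of its sex in the group, which the choice of genes favours.

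KO NASH replicate 2, the only female of its group, stood above the others in 7 genes: Sult2a1 (164 CPM), Sult2a2 (248), Sult2a3 (54.8), Sult2a5 (11.8), Sult3a1 (15.9), Sult3a2 (1.33) and Ugt1a5 (40.6). WT NASH replicate 4, the only male and the only library of negative length slope in its group, stood above the others in 5: Sult2a8 (4404 CPM), Ugt2a3 (790), Ugt2b1 (1627), Ugt2b34 (1377) and Ugt2b5 (2626). KO chow replicate 5, 1 of 2 females and of negative slope, stood above the others in 5: Sult1a1 (1912 CPM), Sult1b1 (62.3), Sult3a1 (623), Sult3a2 (65.1) and Ugt1a5 (211). WT NASH replicate 2, 1 of 4 females, stood above in Sult2a3 (268 CPM), and KO NASH replicate 4, a male, in Sult5a1 (1.44 CPM).

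The genotype difference of Sult3a2 differed between the diets, with a fitted interaction of -14.50 on the log2 scale (edgeR adjusted p = 0.0451). WT chow had 1 count of Sult3a2, so the size depends on the prior count of the fit and is no bound. It was not called with sex as a term.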

How the results depend on the processing

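Counts of called genes among the 41 moved as follows, with the share of all genes called in parentheses. The counts are over 29 tested genes, or 25 in males alone, 30 in females alone, 37 without a filter, and with only the 2 groups 24 for the diet in WT and 27 for the genotypes on the NASH diet. In males alone WT NASH is 1 liver, replicate 4. The counts there for comparisons with WT NASH and for the interaction rest on that liver. WT NASH against WT chow had 6 (5.93%), and 1 with only the 2 groups (2.74%), 0 with sex (1.11%), 9 with slope (12.3%), 1 with sex and slope (4.99%) and 0 in males alone (0.596%). KO chow against WT chow had 3 (5.53%), and 6 without a filter (2.59%), 7 by DESeq2 (9.62%), 10 with slope (11.5%), 6 with sex and slope (13.8%) and 7 in males alone (6.23%). KO NASH against WT NASH had 5 (9.65%), and 10 by DESeq2 (15.2%), 9 with only the 2 groups (15.2%), 9 with slope (16.5%), 12 in males alone (13%) and 0 in females alone (0.138%), where KO NASH is 1 liver assumed to vary like the others. KO NASH against KO chow had 0 (3.29%), and 1 by DESeq2 (9.02%), 1 with sex (3.98%) and 2 with sex and slope (9.36%). The interaction had 1 (0.139%), and 2 without a filter (0.106%), 5 by DESeq2 (1.31%), 0 with sex (0.0277%), 3 with slope (1.32%), 0 in males alone (0.0314%) and 0 with KO NASH replicates 1 and 5 summed (0.0274%). At an unadjusted p under 0.05, the counts of 0 were 4 and 6 in the first comparison, 10 in females alone, and 3, 4 and 10 for the interaction. With sex as a term, 13.3% of all genes passed that unadjusted cut in the first comparison and 7.11% for the interaction. Shares for the other unadjusted counts are not given here. The sex difference had 8 (1.02%) and kept 8 to 10.

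Leaving out each library gave 0 to 11 for WT NASH against WT chow, 1 to 7 for KO chow against WT chow, 3 to 11 for KO NASH against WT NASH, 0 to 1 for KO NASH against KO chow, 0 to 5 for the interaction and 7 to 9 for sex. The shares of all genes called in these fits are not given here. A move of these genes alone thus cannot be told from a move of all genes. The highest counts came without WT NASH replicate 4 (11 and 7 in the first 2) or KO NASH replicate 2 (11 in the third, 5 for the interaction). Without WT NASH replicate 4 the first comparison sets females against males, so diet and sex cannot be told apart in its 11. In the first, every library of WT chow and replicates 1, 2, 3 and 5 of WT NASH lowered the count to at most 3 when left out; in the second, WT chow replicates 3 and 4 lowered it to 1 and KO chow replicates 4 and 5 and KO NASH replicate 2 raised it to 5 or 6; in the third, WT NASH replicate 4 and KO NASH replicates 1 and 3 lowered it to 3 while replicates 1, 2 and 5 of KO chow and replicate 1 of WT NASH raised it to 8 or 9. For the interaction, 0 were called without any one of 15 libraries, and 2 were called without WT NASH replicate 4 or KO chow replicate 2. Sult3a1 reversed in WT NASH against WT chow with sex (-0.57) and in males alone (-0.87), and Sult3a2 with sex (-0.089). The cause of these moves was not tested.

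With the replicate number as a block, 7, 7, 7, 0 and 0 of the genes were called in the 4 comparisons and the interaction. Of all genes, 7.11%, 6.11%, 10.1%, 3.7% and 0.0277% were called there. Unadjusted, 4 and 9 of the genes passed in the last pair, and 8 were called for sex. The pairing has no source in the labels: every number had a pair of libraries that correlated under 0.1, and 6 of 20 libraries correlated best with their own number. Females alone could not be fitted on chow in WT, which had none. Depth limits the genes of few counts, such as Sult2a1 with 2 counts and Sult3a2 with 1 in all of WT chow.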
